A study of Mus musculus with 32 samples.

Results

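The genes described here are 10 components of elastic fibers and microfibrils, namely Eln, Fbn1, Fbn2, Fbln2, Fbln5, Mfap2, Mfap4, Mfap5, Emilin1 and Efemp2. They were taken by gene symbol from a table of 32285 genes, and each symbol matched 1 gene. Bulk RNA sequencing of total RNA was performed on 32 whole bladders of female C57BL/6 mice. Untreated mice gave the young (2 months, n = 6), middle-aged (10 months, n = 5) and untreated old bladders (26 months, n = 6). The other 3 groups were also 26 months old and had been gavaged on 3 days in a row each month from 21 months of age, with water (n = 5), with vehicle (a mixture of Phosal, PEG and ethanol, n = 4) or with D+Q in that vehicle (5 mg/kg dasatinib and 50 mg/kg quercetin a day, n = 6). D+Q is dasatinib, a kinase inhibitor, with quercetin, a plant flavonol, a pair of drugs given to remove senescent cells. The labels give 1 strain and no genetic change for any group, and each library is 1 bladder.

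Elastic fibers let a hollow organ stretch and recoil. In them a core of crosslinked elastin lies within and around a scaffold of fibrillin microfibrils, fibulins and EMILINs bring tropoelastin to that scaffold, and lysyl oxidases crosslink it. In the bladder wall such fibers lie in the lamina propria and between the bundles of detrusor muscle, and elastin is known to be made mostly during growth and to be replaced slowly in adults.

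Eln encodes tropoelastin, the core protein (mm10 chromosome 5, 134702593 to 134747323). Fbn1 (chromosome 2, 125300594 to 125507993) and Fbn2 (chromosome 18, 58008623 to 58210487) encode fibrillins, the rods of which microfibrils are built, and Fbn2 is known as the fibrillin of developing tissue. Mfap2 (chromosome 4, 141010418 to 141015984) and Mfap5 (chromosome 6, 122505845 to 122529290) encode the small microfibril-associated glycoproteins that bind fibrillin. Mfap4 (chromosome 11, 61485431 to 61488900) encodes a fibrinogen-domain protein that binds elastin and fibrillin. Fbln5 (chromosome 12, 101746565 to 101819055) and Efemp2, also called fibulin-4 (chromosome 19, 5473954 to 5482517), encode short fibulins that are needed for elastin assembly. Fbln2 (chromosome 6, 91212455 to 91272540) encodes a longer fibulin that binds fibrillin and elastin, and Emilin1 (chromosome 5, 30913402 to 30921277) encodes a glycoprotein at the interface of elastin and microfibrils. Each value covers all annotated exons of its gene, so transcripts of a gene are not told apart.

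Exons of 4 of these genes overlap exons of a gene on the other strand, and the strand setting of the counting was not given in the sources used here. The overlap was 2442 bases for Fbn1 with Gm9913, which had at most 10 counts in any bladder, and 267 bases for Eln with Gm30003, also at most 10 counts. It was 89 bases for Mfap4 with Mapk7 and 173 bases for Efemp2 with Mus81, and those partners had 601 to 1970 and 412 to 1172 counts.

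The bladders held 15088372 to 52650259 counts summed over genes, and a gene with 3 counts, taken as the floor of detection, stood at 0.0570 to 0.199 CPM. CPM (counts divided by the total of the library, scaled by TMM factors over all 32 bladders) compare 1 gene between bladders, while TPM also divide by exon length and compare genes with each other. Floors cover counting error only. Summed uroplakins and other urothelial markers were at 3857 to 4676 CPM and summed smooth muscle markers at 22710 to 32140 CPM over the 3 untreated age groups. The labels name no batch, and none was fitted. In these bulk samples fewer cells of a type and less RNA per cell cannot be told apart.

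The young bladders differed widely among themselves, and this touches every comparison with them. Eln was at 812, 398, 127, 122, 116 and 352 CPM in young replicates 1 to 6. Replicates 1, 2 and 6 were the 3 highest young bladders for 8 of the 10 genes, the exceptions being Fbln2 and Efemp2, and replicate 1 was the highest for 8 of 10. Over all 16754 genes tested between the young and middle-aged groups, the same 3 bladders were all above the other young bladders for 13.5% and all below them for 13.0%, which is given as a description. Total counts were 28400834, 33549691 and 29693756 in replicates 1, 2 and 6 and 15088372, 16881598 and 33614273 in replicates 3, 4 and 5. Replicates 3 and 4 thus had the lowest totals of the young group and replicate 5 the highest. The part of depth in the spread of the young bladders was not tested.

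Other genes moved along with them. Mki67, a marker of dividing cells, was at 31.0, 23.3, 10.2, 5.83, 5.53 and 13.4 CPM in young replicates 1 to 6, and Col1a1, a chain of collagen I, was at 8245, 7553, 4860, 4003, 3922 and 6042 CPM. The 5 proliferation markers summed to 77.6, 56.2, 21.96, 16.7, 15.9 and 32.2 CPM. Skeletal muscle markers summed to 1147, 937.4, 863.9, 718.9, 513.2 and 902.5 CPM, in the same order from high to low as Eln. The leukocyte marker Ptprc, chosen after its values were seen, was at 46.4, 61.0, 22.1, 24.8, 29.2 and 36.4 CPM, also with replicates 1, 2 and 6 highest. The T cell marker Cd3e did not follow that order. It was at 0.785, 0.919, 0.818, 0.961, 0.495 and 1.39 CPM, with replicates 6 and 4 highest. The 7 fibroblast markers ran nearly the other way, at 5735, 6015, 6349, 6656, 6652 and 6529 CPM, with replicates 1 and 2 lowest. The 6 smooth muscle markers, at 32140, 27060, 30260, 29740, 22710 and 30090 CPM, had replicate 1 highest and replicate 2 second lowest. The part of dividing, skeletal muscle, immune or fibroblast cells in the spread of the young bladders was not tested.

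**Figure D1:**
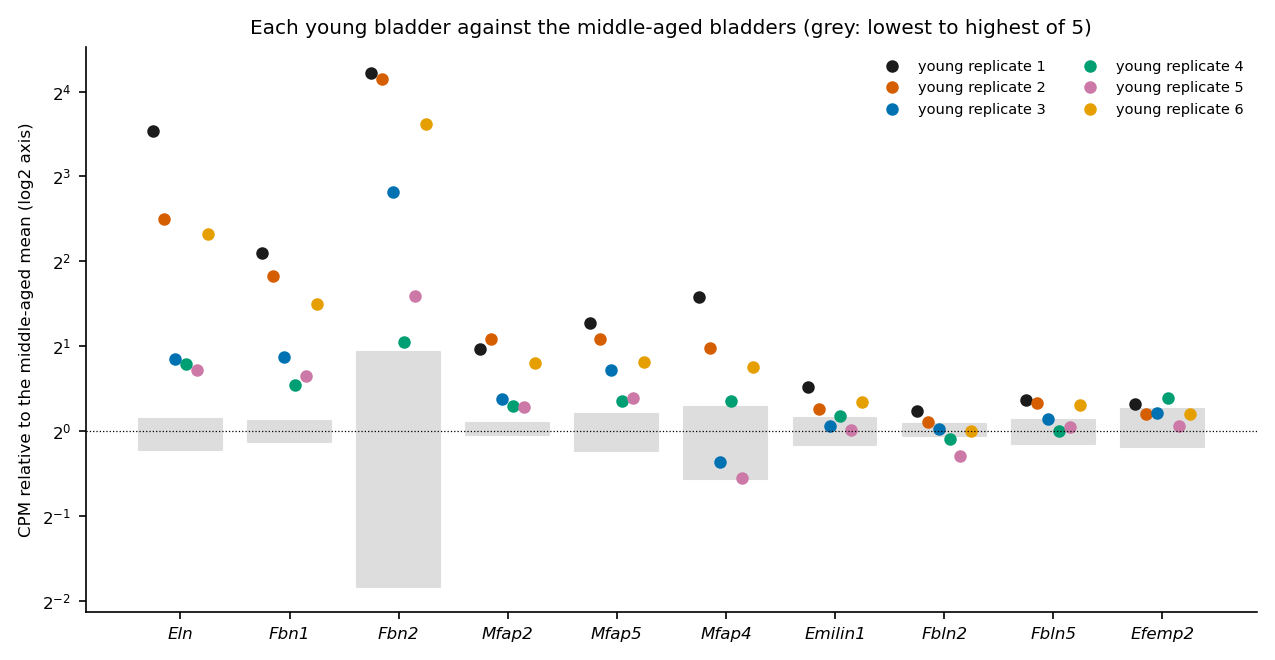
Level of each gene in each of the 6 young bladders, divided by the middle-aged mean of TMM-normalized CPM, on a log2 axis; grey boxes span the lowest to the highest of the 5 middle-aged bladders. All 6 young bladders lie above the grey box for Eln, Fbn1, Fbn2, Mfap2 and Mfap5, and replicates 1, 2 and 6 are highest for 8 of the 10 genes. For Fbn2, a gene of few counts, replicate 4 lies only just above the box.

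From young to middle age, Eln, both fibrillins and both small microfibril-associated glycoproteins passed the test as lower. Fbln5, Efemp2 and Emilin1 had smaller decreases. These did not pass in the fit of the 2 groups, and passed in the single fit of all 6 groups. Mfap4 and Fbln2 passed in neither. In edgeR's quasi-likelihood test with Benjamini-Hochberg adjustment, 5 of the 10 genes were lower in middle-aged bladders and 0 were higher at an adjusted p under 0.05, where 5.85% of all genes tested were lower and 4.96% were higher. For the same 5 genes every young bladder lay above every middle-aged bladder, which held for 3.59% of all genes tested. For Fbn2 the gap was narrow and near the floor. It lay between young replicate 4 (0.240 CPM, 4 raw counts) and middle-aged replicate 4 (0.222 CPM, 8 raw counts). The median log2 fold change was -0.65 over the 10 genes and 0.00278 over all genes. The 10 genes were chosen with earlier results of these data known, so their shares are descriptions. All 5 decreases that passed were in Eln, both fibrillins and both small microfibril-associated glycoproteins.

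Eln was at 116 CPM in the lowest young bladder, with a median of 240 and a highest value of 812, and at 77.7, 73.6, 73.2, 60.0 and 66.6 CPM in the middle-aged bladders. The groups did not overlap, and the mean fell from 321 ± 271 CPM (SD, n = 6) to 70.3 ± 6.96 CPM (SD, n = 5). Eln was 4.53-fold lower in middle age (log2 fold change -2.18, SE 0.469, adjusted p = 0.0132 by edgeR). With each young bladder left out in turn the log2 fold change was -2.35 to -1.67 and the highest adjusted p was 0.0302, and it passed in 6 of 6 such fits. Counting the fits without each middle-aged bladder, Eln passed in 11 of 11. The highest adjusted p was then 0.043 by edgeR, without middle-aged replicate 5.

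Fbn1 was at 174 to 515 CPM in young bladders, with a median of 279, and at 116, 130, 115, 131 and 110 CPM in the middle-aged bladders. Its lowest young bladder stood above its highest middle-aged bladder. The log2 fold change was -1.36 (SE 0.252, adjusted p = 0.00661 by edgeR), a 2.56-fold lower level, and leaving out each young bladder gave adjusted p of 0.00196 to 0.0179. Without middle-aged replicate 5 the adjusted p was 0.0263 by edgeR, the highest of the 11 fits with a bladder left out.

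Fbn2 was scarce at every age. Its raw counts were 58, 67, 12, 4, 12 and 41 in the young bladders and 1, 6, 3, 8 and 2 in the middle-aged ones. In CPM the young bladders ran from 0.240 to 2.17 and the middle-aged ones from 0.0326 to 0.222, and 3 of the 5 middle-aged bladders were at or under the floor of 3 counts. The fitted log2 fold change was -3.32 (95% confidence interval -4.68 to -1.96, adjusted p = 0.00735 by edgeR). When any of 5 of the 6 young bladders was left out, Fbn2 no longer had enough counts to be tested.

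The small microfibril-associated glycoproteins fell less. Mfap2 was at 21.8 to 37.8 CPM in young bladders, with a median of 27.1, and at 19.1, 17.4, 17.3, 18.2 and 17.3 CPM in middle age. The groups came within a few CPM of each other without overlapping, and the log2 fold change was -0.66 (SE 0.140, adjusted p = 0.0125 by edgeR). Mfap5 was at 37.96 to 71.4 CPM in young bladders, with a median of 50.4, and at 29.5, 28.1, 31.1, 34.0 and 25.1 CPM in middle age. Its log2 fold change was -0.80 (SE 0.151, adjusted p = 0.00705 by edgeR), and the ranges again did not overlap.

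Mfap4 had 32.6 to 143 CPM in young and 32.4 to 58.1 CPM in middle-aged bladders, so the groups overlapped. Its log2 fold change of -0.64 had a 95% confidence interval of -1.32 to 0.05 and an adjusted p of 0.216 by edgeR, and without young replicate 1 it was -0.36. The values for Emilin1 (-0.23), Efemp2 (-0.22) and Fbln5 (-0.19) were of 1 sign and small, with adjusted p of 0.102, 0.0864 and 0.121 by edgeR. Each of these 3 passed when 1 particular bladder was left out, namely young replicate 5 for Emilin1, middle-aged replicate 4 for Efemp2 and young replicate 4 for Fbln5. Fbln2 was at 92.6 ± 11.1 CPM (SD, n = 6) in young and 92.1 ± 3.66 CPM (SD, n = 5) in middle-aged bladders, with a 95% confidence interval of the log2 fold change from -0.15 to 0.16.

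**Figure D2:**
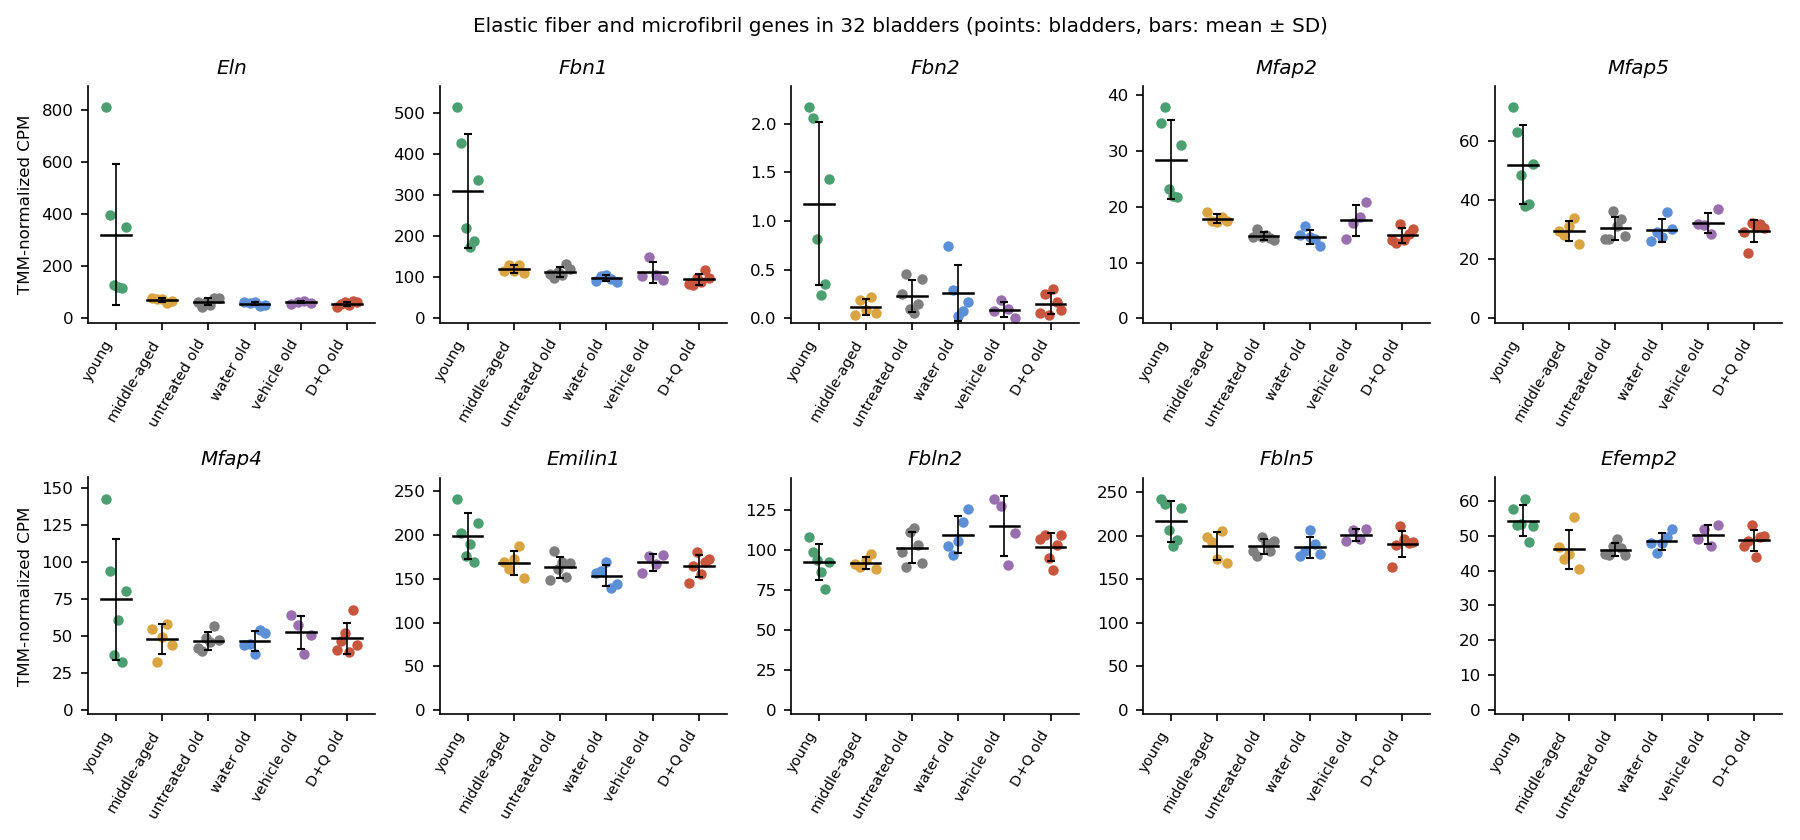
TMM-normalized CPM of the 10 genes in each of 32 bladders by group, on linear axes that start near 0; points are bladders and bars are the mean ± SD. Eln, Fbn1, Fbn2, Mfap2 and Mfap5 are highest and most spread in the young group, and the young and middle-aged points of Fbln2, Fbln5 and Efemp2 overlap.

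Proximal upstream sequence is shown for 3 of these genes as examples of a microfibril-associated glycoprotein (Mfap2) and of both short fibulins (Fbln5 and Efemp2), and no difference in age response between them was tested. RefSeq windows of GRCm38.p6 matched 6 of the 10 genes, and the stretches shown end at the annotated start or at the first exonic base. Capitals mark matches on either strand. The letters searched were TATAAA for a TATA box, which binds the general transcription machinery. A GC box was searched as GGGCGG, the site of Sp factors. The CCAAT box was searched by the letters of its name. The last was CAGACA, a SMAD box known from targets of TGF-beta.
Mfap2, chr4:141010174-141010417, plus strand: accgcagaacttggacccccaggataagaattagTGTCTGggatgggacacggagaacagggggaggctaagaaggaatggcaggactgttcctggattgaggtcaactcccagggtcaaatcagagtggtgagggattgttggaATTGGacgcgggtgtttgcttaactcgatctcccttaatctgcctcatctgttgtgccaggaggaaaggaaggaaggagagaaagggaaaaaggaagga
Fbln5, chr12:101819120-101819369, minus strand: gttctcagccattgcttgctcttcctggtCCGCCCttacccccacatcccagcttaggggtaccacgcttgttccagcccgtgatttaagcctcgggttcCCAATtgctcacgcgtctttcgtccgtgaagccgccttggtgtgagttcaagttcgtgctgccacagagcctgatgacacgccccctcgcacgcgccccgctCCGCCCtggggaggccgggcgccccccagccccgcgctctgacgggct
Efemp2, chr19:5473696-5473945, plus strand: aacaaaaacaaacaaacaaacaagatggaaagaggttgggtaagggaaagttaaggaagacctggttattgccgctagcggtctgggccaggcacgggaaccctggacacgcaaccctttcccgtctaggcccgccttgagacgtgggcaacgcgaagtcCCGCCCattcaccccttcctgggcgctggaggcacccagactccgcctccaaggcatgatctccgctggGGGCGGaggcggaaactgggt

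Among 10 windows of 250 bases upstream of a start of the 6 matched genes, some of which overlap, 7 held a GC box, 2 a CCAAT box, 3 a SMAD box and 0 a TATA box. Over 32817 windows of that length the shares were 32.7%, 33.8%, 17.1% and 12.4%. The windows of Fbn1, Fbln2 and Emilin1 lay wholly within annotated exons, and every window of Efemp2 held a GC box. The G and C content of the 10 windows was 49.6% to 78.8%, against a median of 52.4% over all windows. A difference from the shares over all windows was not tested. These are matches of letters and not sites shown to be used.

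From middle age to 26 months, 1 of the 9 genes tested was lower and 0 were higher, against 11.0% lower and 13.0% higher of all genes tested. That gene was Mfap2, at 19.1, 17.4, 17.3, 18.2 and 17.3 CPM in middle-aged and at 14.1 to 15.9 CPM in untreated old bladders, with a median of 14.5. Its groups did not overlap, as for 6.10% of all genes in that direction. The log2 fold change was -0.28 (SE 0.0466, adjusted p = 0.00105 by edgeR), and it was between -0.30 and -0.26 with each bladder left out. In a single fit of all 6 groups, which share 1 estimate of the spread, the value was -0.28 and the adjusted p was 0.108.

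Eln was at 44.7 to 78.4 CPM in untreated old bladders, with a median of 63.2, a range that covers all 5 middle-aged bladders. Its log2 fold change was -0.15, with a 95% confidence interval of -0.43 to 0.14. For Fbn1 the value was -0.09 (-0.25 to 0.07). Fbln2 had the largest positive value of the 9 genes tested, 0.14, with an adjusted p of 0.115 by edgeR, which became 0.0445 without untreated old replicate 2. The other 5 genes tested had log2 fold changes between -0.05 and 0.04. Fbn2 had too few counts to be tested, and without a filter on low counts its log2 fold change was 1.02 with an adjusted p of 0.279 by edgeR.

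Between young and untreated old bladders 8 of the 10 genes were lower and 0 were higher, against 12.4% and 12.6% of all genes tested, and 4 did not overlap, against 5.96% of all genes. These bladders also enter the comparisons above, and the choice of the genes limits these shares as well. The log2 fold changes by edgeR were -2.34 for Eln, -1.46 for Fbn1, -2.31 for Fbn2, -0.95 for Mfap2 and -0.77 for Mfap5. Smaller decreases passed for Emilin1 (-0.28, adjusted p = 0.0204), Efemp2 (-0.24, adjusted p = 0.00517) and Fbln5 (-0.21, adjusted p = 0.0339, all by edgeR). That of Fbln5 was lost without any of young replicates 1, 2 and 6 or untreated old replicates 1, 2 and 5, with adjusted p up to 0.0767. Mfap4 (-0.68, adjusted p = 0.104) did not pass in the fit of these 2 groups, and passed without young replicate 3 or 5 and in the single fit of all 6 groups (adjusted p = 0.026 by edgeR), and Fbln2 was at 0.14 (adjusted p = 0.27 by edgeR).

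**Figure D3:**
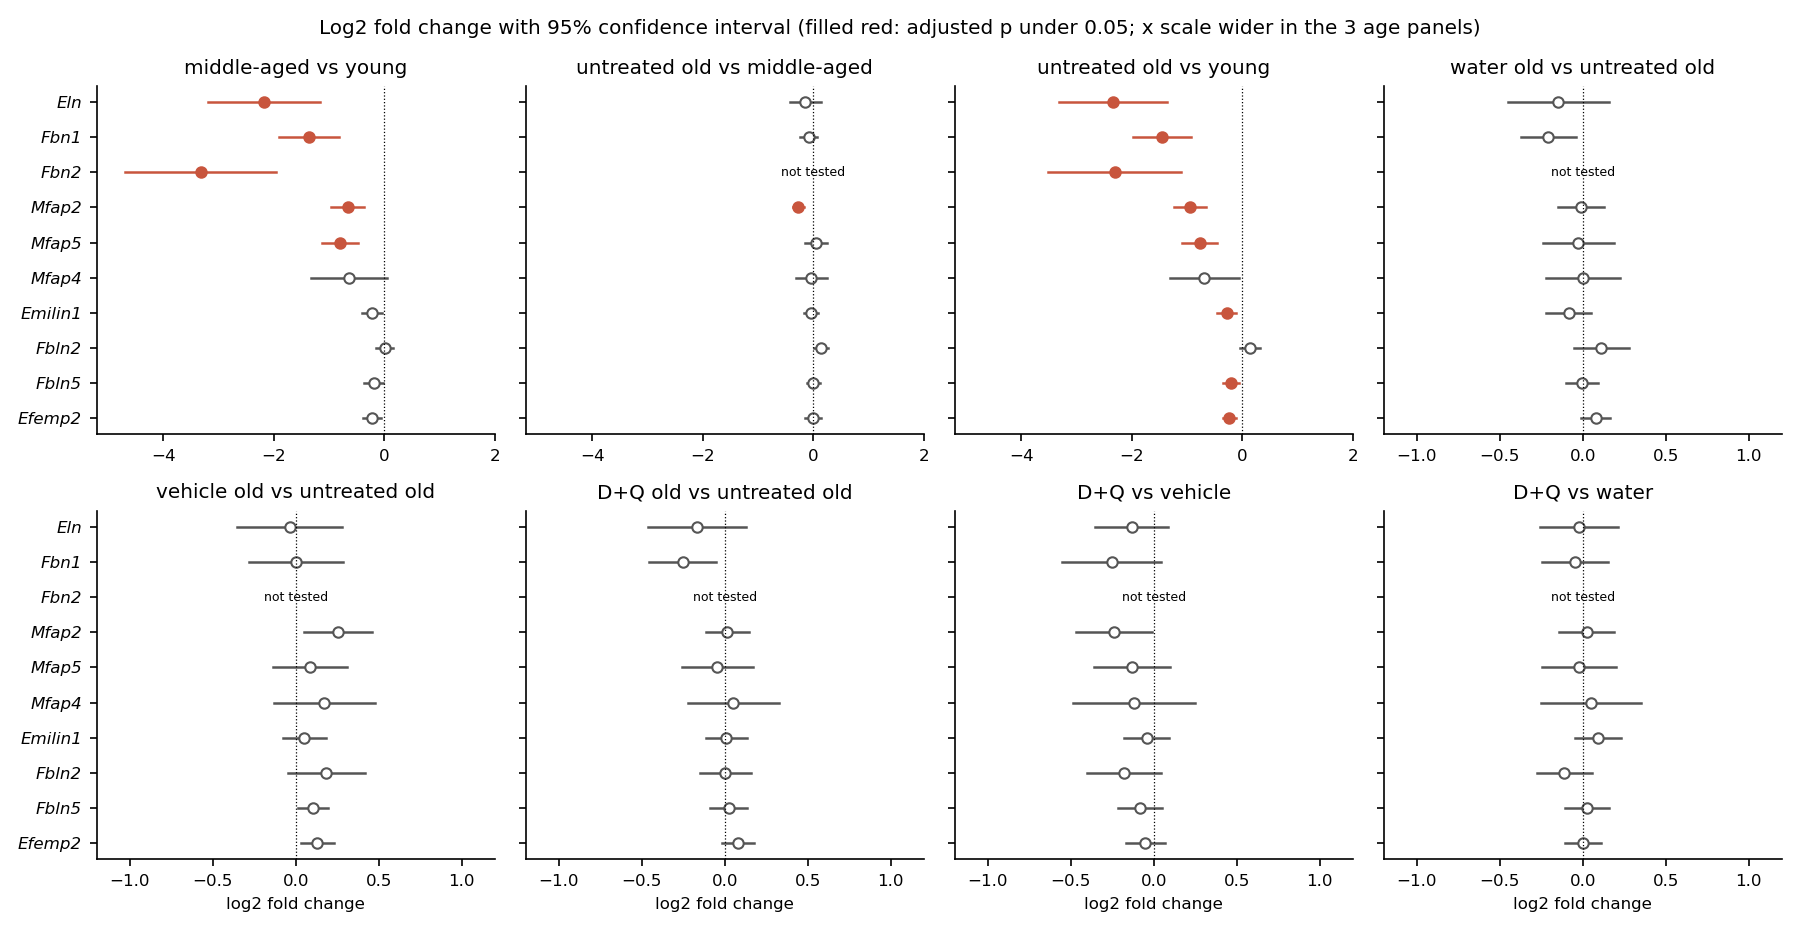
Log2 fold change of the 10 genes in 8 comparisons, with 95% confidence intervals from edgeR; filled red points have an adjusted p under 0.05. Red points are seen for 5 genes in middle-aged against young, 1 in untreated old against middle-aged, 8 in untreated old against young and 0 in the other 5 panels.

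Per length, the order of the genes by mean level changed between 2 and 10 months. The 10 genes summed to 849 ± 290 TPM (SD, n = 6) in young, 546 ± 33.8 TPM (SD, n = 5) in middle-aged and 516 ± 27.7 TPM (SD, n = 6) in untreated old bladders. In young bladders Emilin1 (141 TPM), Eln (138 TPM) and Mfap4 (136 TPM) led by mean level. The ranges of neighbours overlapped down to Mfap2. The young mean of Eln was raised by replicate 1, at 348 TPM. Young replicates 3, 4 and 5 were at 53.3, 51.9 and 52.5 TPM. The young median of Eln was 103 TPM, under the 110 TPM of Fbln5. By means, Eln made up 16.3% of the summed TPM in young, 5.63% in middle-aged and 5.18% in untreated old bladders. Its rank by mean moved from 2 to 8 and 9. Emilin1 stood first in all 6 groups, with mean levels of 121 TPM at 10 months and 113.5 TPM in the untreated mice of 26 months, above Fbln5 (96.1 and 93.0 TPM) with no overlap in either. Mfap5, Eln and Fbn1 were neighbours with overlapping ranges at the lower end in both. Fbn2 was last in all groups, at 0.311 TPM in young bladders. The ratio of Eln to Fbn1 TPM was 1.36 ± 0.563 (SD, n = 6) in young and 0.881 ± 0.121 (SD, n = 5) in middle-aged bladders, while that of Mfap5 to Mfap2 was 0.619 ± 0.0647 and 0.559 ± 0.0596.

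The other genes of the pathway were read from 10 lists with 58 genes, of which 56 were tested between young and middle-aged bladders. Of these, 21 were lower (37.5%, against 5.85% of all genes) and 3 higher (5.36%, against 4.96%). The lists were chosen with earlier results of these data known, so these shares are descriptions. All 7 fibrillar collagens were lower, with a median log2 fold change of -1.03, and the largest falls were in Col11a1 (-1.55), Col3a1 (-1.33) and Col1a1 (-1.07). Of the 5 lysyl oxidases, the crosslinking enzymes, 4 were lower, led by Lox (-1.51), Loxl2 (-1.23) and Loxl1 (-0.74). Of 8 ADAMTS and ADAMTS-like proteins, which bind or process microfibrils, 4 were lower, with Adamtsl2 (-2.85), Adamts17 (-0.99) and Adamts10 (-0.40) falling most. The elastin-degrading proteases Ctsk (-0.40) and Mmp2 (-0.39) fell, 2 of 6 tested. Itgb3, an integrin chain, fell by 0.90 on the log2 scale, as 1 of 7 integrins, Fn1 (fibronectin) by 0.62, as 1 of 7 proteoglycans and glycoproteins, Emilin2 by 0.37, as 1 of 4, and Fbln1 by 0.34. The 3 that rose were the fibulins Fbln7 (0.57) and Hmcn1 (0.48) and the lysosomal sialidase Neu1 (0.17), 1 of 4 genes of the elastin receptor complex list. None of the 4 LTBP genes, which encode latent TGF-beta binding proteins, passed.

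Between middle-aged and untreated old bladders the counts were others, with 10 of 55 tested genes higher (18.2%) and 5 lower (9.09%), near the 13.0% and 11.0% of all genes. Mmp12 (macrophage elastase) rose by 2.56 and Ctss (cathepsin S) by 1.32 on the log2 scale, while 3 of the 6 proteases tested fell, led by Mmp9 (-0.53), so the protease list moved in both directions. Adamtsl2 rose by 1.73 and Adamtsl5 by 0.15. Also higher were Ltbp2 (0.71), Hmcn1 (0.52), Fbln7 (0.50), Itga8 (0.49), Mmrn1 (0.45) and Emilin2 (0.33), and Col5a3 (-0.43) and Ltbp3 (-0.19) were lower. The lysyl oxidases, elastin receptor genes and proteoglycans had 0 calls. Immune cell transcripts moved in the same comparison, with the leukocyte marker Ptprc higher by 1.70 and the T cell marker Cd3e by 2.42 on the log2 scale (adjusted p = 1.25e-05 and 1.26e-05 by edgeR), a pair chosen after their values were seen, and their part in the protease values was not tested. Between young and untreated old bladders 26 of 56 pathway genes were lower (46.4%, against 12.4% of all genes) and 7 were higher, a share like the 12.6% of all genes. The choice of the lists limits these shares as well.

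**Figure D4:**
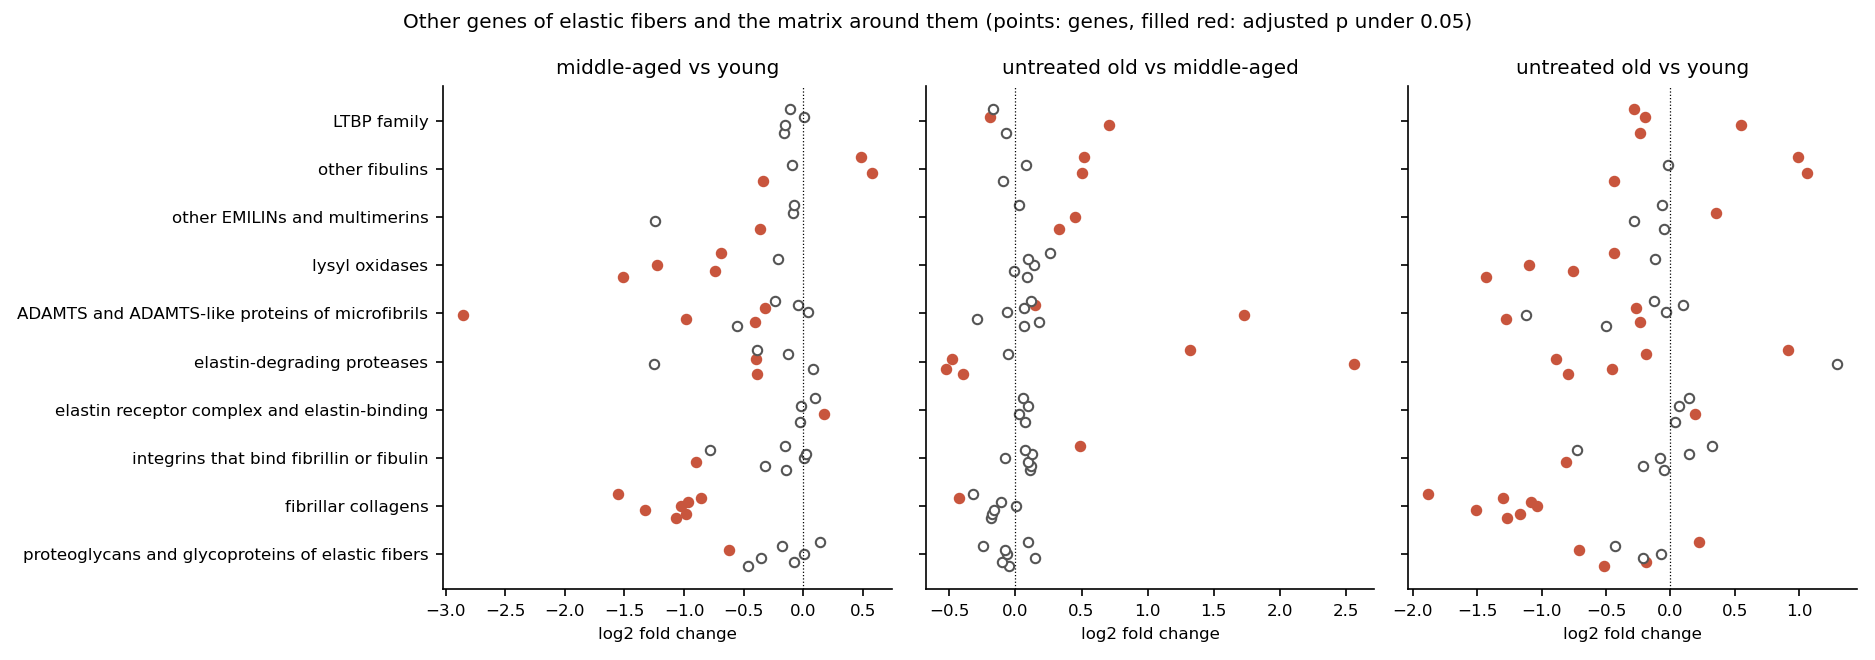
Log2 fold change of the tested genes of 10 pathway lists in the 3 age comparisons; points are genes and filled red points have an adjusted p under 0.05. All 7 fibrillar collagens and 4 of 5 lysyl oxidases are red and left of 0 in middle-aged against young, and Mmp12 is the farthest to the right, at 2.56, in untreated old against middle-aged.

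Cell type markers were read beside these values. From young to middle age 5 of 5 proliferation markers were lower, from 15.9 to 77.6 CPM down to 8.73 to 16.8 CPM in sum, with Mki67 at a log2 fold change of -1.69. Of 7 fibroblast markers 5 were lower, with sums of 5735 to 6656 and 5385 to 5753 CPM. Endothelial (2 of 5), Schwann cell (2 of 4) and skeletal muscle markers (1 of 4 tested) were also lower in part, and the smooth muscle (6), urothelial (7), mesothelial (3) and adipocyte markers (4) had 0 calls. The part of these cell types in the fall of Eln and the fibrillins was not tested. From middle age to old age 5 of 5 proliferation markers were higher, with Mki67 at a log2 fold change of 2.20 and at 10.7 to 31.6 CPM in the untreated old bladders. Eln stood at -0.15 and Fbn1 at -0.09 in that comparison, and their relation to the proliferation markers was not tested. Fibroblast markers were lower in 2 of 7, smooth muscle markers in 2 of 6, urothelial markers in 3 of 7, Schwann cell markers in 2 of 4, skeletal muscle markers in 1 of 4 tested and endothelial markers in 1 of 5, with 1 more endothelial marker higher. The part of these markers in the decrease of Mfap2 was not tested.

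Gavage with water, vehicle or D+Q changed none of the 9 genes tested at an adjusted p under 0.05, by edgeR or by DESeq2. By edgeR the share of all genes called was 0.516% lower and 0.487% higher for water against untreated old bladders, and in either direction it was 0.00% for vehicle against untreated, 0.00% for D+Q against untreated, 0.00% for D+Q against vehicle and 0.00% for D+Q against water. DESeq2 called 703 of 14885, 132 of 10654, 180 of 16014, 10 of 17221 and 69 of 15473 genes tested in these 5 comparisons. An unadjusted p under 0.05 by edgeR was reached by 1, 3, 1, 1 and 0 of the 9 genes in these 5 comparisons. Among all genes tested it was reached by 2760 (16.0%), 1464 (8.39%), 2200 (12.9%), 722 (4.18%) and 1342 (7.82%). The 58 other pathway genes, 55 of them tested, also had 0 calls in each.

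Eln was at 43.1 to 65.2 CPM after D+Q, with a median of 57.9, at 57.4, 64.7, 65.8 and 59.4 CPM after vehicle and at 63.1, 59.1, 64.2, 47.9 and 52.0 CPM after water. All 3 groups overlapped the untreated old range of 44.7 to 78.4 CPM. Against vehicle the log2 fold change after D+Q was -0.13, with a 95% confidence interval of -0.36 to 0.09. Against untreated old bladders it was -0.17 (-0.46 to 0.13).

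Fbn1 was at 82.2 to 119 CPM after D+Q, with a median of 93.1, and at 97.4 to 133 CPM in untreated old bladders, with a median of 110.3. Its log2 fold change was -0.25 (95% confidence interval -0.46 to -0.05, unadjusted p = 0.0178, adjusted p = 0.33 by edgeR). Water-gavaged bladders, at 88.7 to 106 CPM, gave -0.21 against the same untreated bladders (adjusted p = 0.213 by edgeR), and D+Q against water gave -0.05 (-0.24 to 0.15).

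Mfap2 was at 14.2, 17.1, 18.2 and 20.8 CPM after vehicle, at 13.4 to 16.8 CPM after D+Q and at 14.1 to 15.9 CPM without gavage. Its log2 fold change was 0.25 for vehicle against untreated (unadjusted p = 0.0199, adjusted p = 0.519 by edgeR) and -0.24 for D+Q against vehicle (unadjusted p = 0.0426, adjusted p = 0.994 by edgeR), 2 comparisons that share the 4 vehicle bladders. Efemp2 (0.13) and Fbln5 (0.10) also had an unadjusted p under 0.05 for vehicle against untreated, with adjusted p of 0.511 and 0.551 by edgeR. For D+Q against vehicle all 9 log2 fold changes were below 0 (median -0.13), as were those of 51.2% of all genes, and for vehicle against untreated 8 of 9 were above 0 (median 0.10), as were 50.6% of all genes. None of these passed, and because the same 4 vehicle bladders enter both comparisons, opposite signs are no separate result. For the remaining members and comparisons the adjusted p was above 0.2 in every case. Fbn2 was at 0 to 14 counts in the gavaged bladders and was not tested.

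Across all 32 bladders, the gene whose log2 CPM was most like that of Eln among 15055 genes with a mean of at least 1 CPM was Gpr153 (Pearson's r = 0.97, and 0.91 after removing group means). For Fbn1 it was Adamts2, a procollagen-processing protease (0.98 and 0.94), for Mfap2 Col1a1 (0.94 and 0.77) and for Mfap4 the proteoglycan Bgn (0.90 and 0.92). For Mfap5 it was Pmp22 (0.93 and 0.81), for Fbn2 Atp8b2 (0.89 and 0.73) and for Efemp2 Ccdc107 (0.87 and 0.80). For Emilin1 it was Rcn1 (0.865 and 0.82), for Fbln5 Tmed3 (0.83 and 0.74) and for Fbln2 Fez2 (0.76 and 0.75). The mean of the 9 genes that reach 1 CPM, as z-scores, was most like Bgn (0.94 and 0.90) and Col4a1 (0.94 and 0.89). Next were Serpinh1 (0.93 and 0.865), Col4a2 (0.93 and 0.85) and Gpr153 (0.93 and 0.87). These genes include basement membrane collagen chains and a collagen chaperone. These bladders share group, depth and tissue makeup, and the values are descriptions.

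Among themselves the 10 genes varied together mainly through the young group. After removal of group means the median r over the 45 pairs was 0.54 (-0.10 to 0.89) in 32 bladders, with 44 pairs above 0, and Eln with Fbn1 was highest. In the 26 bladders that were not young the median was 0.15 (-0.46 to 0.57), with 33 pairs above 0, and Eln with Fbn1 stood at 0.57.

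**Figure D5:**
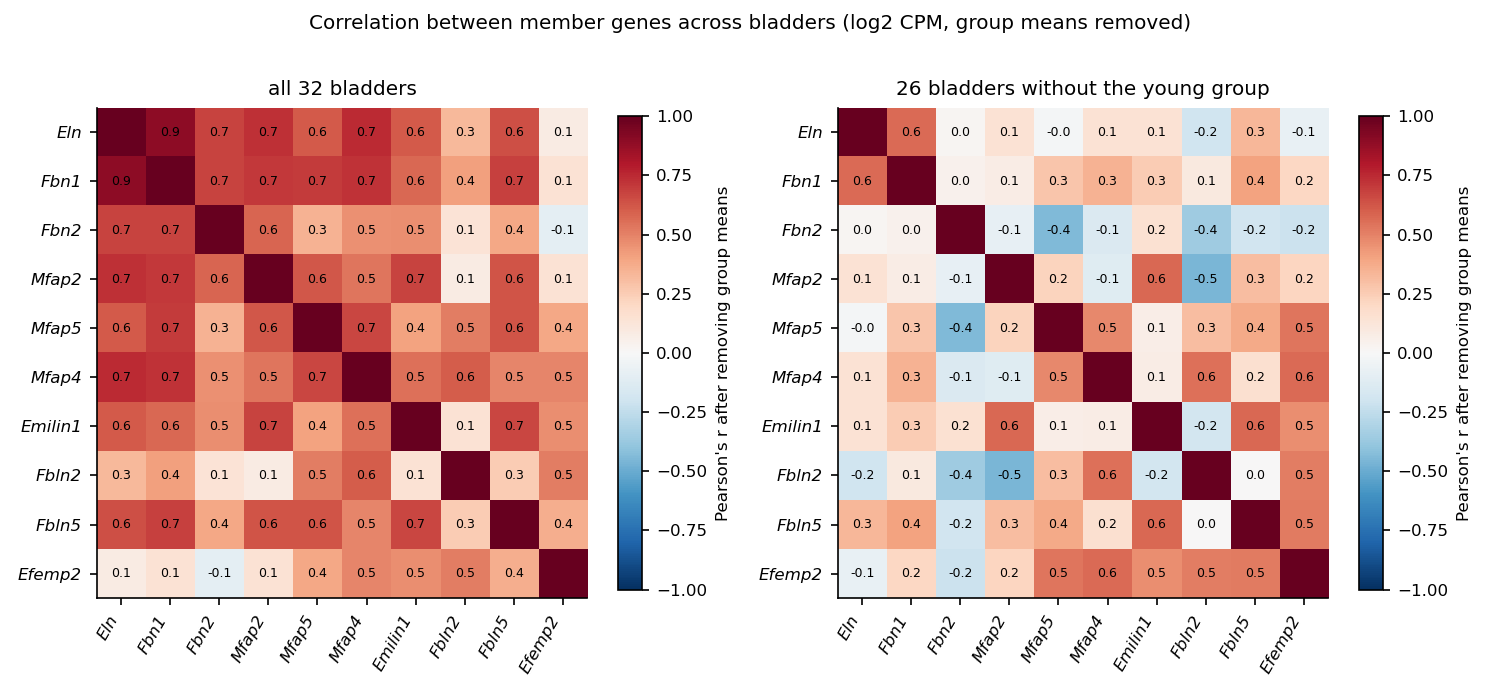
Pearson's r of log2 CPM between pairs of the 10 genes after removing group means, in all 32 bladders (left) and in the 26 bladders outside the young group (right). The left panel is mostly red, with a median of 0.54 over 45 pairs, and the right panel is paler, with a median of 0.15.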

How the data were processed

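Total RNA of each whole bladder was made into a TruSeq Stranded Total RNA library and sequenced by the authors, who aligned reads with STAR 2.7.3 to mm10 and counted reads per gene with featureCounts from Subread. The deposited table of raw counts, with its exon length for each gene, was used here as the authors made it. The deposited log2 table of normalized values was not used. The strand setting of the counting is not given in the sources used here. Of 32285 genes, 127 had no symbol, and 0 pairs of bladders held identical values.

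Groups came from the sample labels. CPM used TMM factors over all 32 bladders, TPM used counts per exon length, and log2 CPM had an offset of 0.5. Each of 8 comparisons was fitted on its own 2 groups with edgeR 4.0.16 in R 4.3.3 (filterByExpr, TMM, quasi-likelihood test, 2-sided), with Benjamini-Hochberg adjustment over all genes tested and a threshold of 0.05. The fit was tested on simulated counts whose spread was set alike for all genes and in both groups. Those counts lack the wide spread of the young bladders, so that test does not bear on it. Alternatives were DESeq2 1.42.0, RLE size factors, no filter, at least 10 counts in every bladder, a single fit of all 6 groups, a block for the replicate number, and fits without each single bladder. Same-numbered bladders of different groups come from different mice, and their deviations correlated between -0.31 and 0.21, so the number was taken as a name only. The numbers are those of the sample titles. Some middle-aged, water and vehicle bladders carry another number in the deposited counts, and likeness by that number was not tested. All 10 members are named, as are up to 3 called genes of each pathway list with the largest log2 fold change in the first 2 age comparisons, and members and lists were chosen with earlier results of these data known. Upstream sequence came from RefSeq (GRCm38.p6). The summed immune marker list is not reported here.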

Additional observations from a re-analysis of the deposited data

Results flagged for a closer look

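Among 60 groups of bladders (10 genes in 6 groups), 1 held a bladder far from the others, where chance flags about 1 in 20 groups, or 3 of 60. Mfap5 was at 22.11 CPM in D+Q replicate 2, and the other 5 D+Q bladders were at 29.13 to 32.24 CPM. The gap to the nearest bladder was 0.693 of the range of the group, above Dixon's critical value for 6 samples.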

How the results depend on the processing

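Between middle-aged and young bladders 8 of the genes passed in the single fit of all 6 groups, against 5, and Fbln5, Emilin1 and Efemp2 were the added ones. Over all genes that fit called 2858 of 18093 tested, against 1811 of 16754 in the fit of 2 groups. DESeq2 called 6 between the same groups, the added gene being Efemp2 (adjusted p = 0.0491 by DESeq2), and 2668 of all 16744 genes tested. Mfap4 passed between untreated old and young bladders in the 6-group fit (adjusted p = 0.026 by edgeR). Over all genes that fit called 5073 of 18093 there, against 4229 of 16873 in the fit of 2 groups. Between untreated old and middle-aged bladders 0 passed in the 6-group fit, where Mfap2 had an adjusted p of 0.108 by edgeR. Over all genes it called 2519 of 18093 there, against 4110 of 17156 in the fit of 2 groups. With each bladder left out 1 to 2 members passed, the second being Fbln2 without untreated old replicate 2. The replicate numbers do not pair the bladders, and with the replicate number as a block 2 passed there (Mfap2 and Fbln2), Efemp2 passed between middle-aged and young bladders (adjusted p = 0.0359 by edgeR) and Fbln5 did not between untreated old and young (adjusted p = 0.0607 by edgeR). The cause of these differences was not tested.

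The log2 fold changes that changed sign were all of genes that did not pass. For Fbln2 in middle-aged against young the values were -0.00307 with DESeq2, -0.00308 with RLE size factors, -0.00697 in the 6-group fit and -0.0465 to 0.0465 with a bladder left out. In untreated old against middle-aged, Fbln5 was at 0.00186 with DESeq2, 0.0018 with RLE, 0.00457 without a filter, 0.00471 with at least 10 counts and -0.0406 to 0.0293 with a bladder left out. Efemp2 was there at 0.00065 without a filter, 0.000627 with at least 10 counts, 0.0121 with the block and -0.0513 to 0.065 with a bladder left out, Mfap4 at -0.145 to 0.0403 and Mfap5 at -0.0162 to 0.0919. For water against untreated, Fbln5 was at 0.00692 with the block and -0.036 to 0.0153 with a bladder left out. Mfap4 was at -0.000502 without a filter, -0.00399 with at least 10 counts, -0.00134 in the 6-group fit and -0.0551 to 0.0716 with a bladder left out, Mfap2 at -0.0584 to 0.0294 and Mfap5 at -0.0995 to 0.0282. For vehicle against untreated, Eln was at 0.155 with the block and -0.12 to 0.0313 with a bladder left out. Fbn1 was at -0.00303 with DESeq2, -0.00281 with RLE, -0.00594 without a filter, -0.00129 with at least 10 counts, -0.00099 in the 6-group fit and -0.17 to 0.0798 with a bladder left out. For D+Q against untreated, leaving out a bladder gave -0.0297 to 0.0437 for Fbln2, -0.00811 to 0.0622 for Fbln5, -0.0224 to 0.0432 for Mfap2, -0.0689 to 0.115 for Mfap4, -0.0781 to 0.0251 for Mfap5 and -0.0178 to 0.0444 for Emilin1. For D+Q against water, Efemp2 was at -0.00407 with DESeq2, -0.00334 with RLE, -0.00254 with at least 10 counts, -0.00661 with the block and -0.0271 to 0.0284 with a bladder left out. Leaving out a bladder there gave -0.0816 to 0.0448 for Eln, -0.00971 to 0.063 for Fbln5, -0.0178 to 0.0695 for Mfap2, -0.0766 to 0.109 for Mfap4 and -0.0635 to 0.0564 for Mfap5. Fbn2, at 0 to 21 counts in the bladders that were not young, is the gene whose values depth limits most.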
